A study of Homo sapiens with 9 samples.

Results

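SaOS2 cells, a human osteosarcoma line with osteoblast features, were profiled after 3 days in doxycycline at 1 µg/ml and compared with untreated control cells. The cells of the doxycycline group were described as transfected and carry a doxycycline-inducible construct that expresses an RNA antisense to APC. The comparison uses 6 of the 9 arrays of the series, the 3 doxycycline arrays and the 3 control arrays. The other 3 arrays, from cells grown on for 3 days without the drug, entered neither the normalisation nor the main comparison. All cells grew in medium with G418 and hygromycin, and the labels do not say whether the control cells carry the construct or whether the line is 1 clone. The groups therefore differ in the drug and in the induced RNA together, and possibly in the construct and the clone. These cannot be told apart. The analysis covered the 11817 genes with a probe detected at p under 0.05 on 3 or more of the 6 arrays.

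Cells sense double-stranded RNA through the helicases RIG-I (gene RIGI) and MDA5 (gene IFIH1) and through the endosomal receptor TLR3, which lead to the production of type I interferons. Interferon acts through its receptor on Janus kinases, and a complex that contains IRF9 then binds interferon-stimulated response elements and raises antiviral genes such as the OAS, MX and IFIT families. APC is a scaffold of the complex that marks β-catenin for destruction, and loss of APC is known to raise targets of the Wnt pathway.

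Values are normalised log2 signals of 1 probe per gene, and differences are doxycycline minus control ± SE with n = 3 arrays per group unless stated otherwise. A gene is said to have risen or fallen only where its Benjamini-Hochberg adjusted p was under 0.05 in limma's moderated test over all 11817 genes. Nothing in the labels says that the replicates came from different cultures, so each p measures spread among these 6 arrays alone, some or all of which may be technical. Each array held 47322 probes, of which 20141 to 20925 were detected on the doxycycline arrays and 20375 to 20995 on the control arrays.

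Doxycycline replicate 2 stood apart from the other arrays of its group. Its correlation over the genes tested was 0.9704 with replicate 1 and 0.9834 with replicate 3, whereas replicates 1 and 3 had 0.9928 and the 3 pairs of control arrays had 0.9937 to 0.9951. On the first principal component, which held 65.8% of the variance, doxycycline replicates 1, 2 and 3 lay at -6.74, 45.92 and 9.29, and the control arrays lay between -16.92 and -14.95. All 3 doxycycline arrays were thus on 1 side of the controls, but at very different distances. The median SD of a gene was 0.22 over the doxycycline arrays, 0.119 over doxycycline replicates 1 and 3, and 0.116 over the control arrays. A median SD from 2 arrays tends to run lower than from 3, so 0.119 and 0.116 do not show equal spread. The main counts of calls are therefore given on all 6 arrays and on the 5 arrays left without doxycycline replicate 2, as are list medians that this array moved and genes whose call depended on it. The calls without it are gathered towards the end.

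The labelled cell type was checked by markers. Of 11 osteoblast markers 8 were tested, among them RUNX2, SP7, ALPL and COL1A1, and none rose or fell. BGLAP and SPP1 were not detected on 3 or more arrays. Of 10 haematopoietic markers CD14, CD68 and SPI1 were tested, and PTPRC, CD3E, LYZ, HBA1, HBB and CD34 were not detected on 3 or more arrays. Markers of other cell types were in part detected as well. Those tested numbered 2 of 6 for epithelium, 1 of 5 for endothelium, 2 of 6 for muscle, 1 of 4 for fat and 2 of 5 for cartilage, and none rose or fell. EPCAM, an epithelial adhesion molecule, read 10.65, 11.34 and 10.95 on the doxycycline arrays and 10.66, 10.63 and 10.53 on the control arrays. CKM, the muscle creatine kinase, read 10.50, 10.41 and 10.28 against 10.51, 10.59 and 10.66 in control cells. SOX9, the cartilage factor, lay at 8.87 to 8.99 on the doxycycline arrays and 8.77 to 9.0 on the control arrays, and VWF, an endothelial clotting factor, at 7.68 to 8.14 on the doxycycline arrays and 7.03 to 7.40 on the control arrays. COL9A2, a cartilage collagen chain, was the other such marker detected on all 6 arrays.

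APC itself did not differ detectably. Only 1 probe of this gene (chr5:112707498-112846239, GRCh38.p14) passed the detection filter. It read 5.49, 5.50 and 5.46 on the doxycycline arrays and 5.19, 5.09 and 5.74 on the control arrays. It was detected on all 3 doxycycline arrays and on 1 of 3 control arrays, and the control values lay on both sides of the doxycycline values. The difference of 0.14 ± 0.18 had a 95% interval of -0.27 to 0.55 and an adjusted p of 0.676. Whether this probe would also register the antisense transcript was not tested.

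Doxycycline-treated cells had 84 genes past the threshold, or 0.711% of those tested. Of these, 83 rose (0.702%) and 1, RPL7, fell (0.00846%). With median scaling in place of quantile normalisation 280 genes passed, of which 229 rose and 51 fell. The largest rises were in genes of the antiviral interferon response, and 43 of the 83 belong to a list of 118 interferon response genes. A further 12 belong to other lists used here, and 28 belong to none. The median difference over all genes was 0.01, and the 5th and 95th percentiles were -0.45 and 0.57. At an unadjusted p under 0.05, 2109 genes differed, with 1294 higher and 815 lower in doxycycline-treated cells. In 15.5% of all genes every doxycycline array lay above every control array, and in 11.3% every one lay below, so that groups without overlap were common among all genes.

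The count depended on single arrays. It was 39, 34 and 41 without control replicate 1, 2 or 3, 39 without doxycycline replicate 3, 160 without doxycycline replicate 2, and 1157 without doxycycline replicate 1. In all 6 of these fits 34 genes were called, each of them higher in doxycycline-treated cells, and 24 of these were interferon response genes. The remaining 50 were lost in at least 1 of these fits. Among the named genes the losses came without a control array or without doxycycline replicate 3, and none came without doxycycline replicate 1 or 2. Of the called genes named here, those called in 2 of the 6 fits were TLR3, IRF9, USP18, ISG15, IFITM1, SP110, ZC3HAV1, APOL6, TRIM21, GBP1, GBP5, PARP10, ZNFX1, HLA-E, TAPBP, TAP1, CCL5, IL15, MMP13, CD68, APOL1, CTSS, IL1R1, FGF2, NAV2, DDX60L and RPL7. Those called in 3 were PARP9, LGALS3BP, IFI35, DDX60, IL6 and CCND1.

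**Figure D1:**
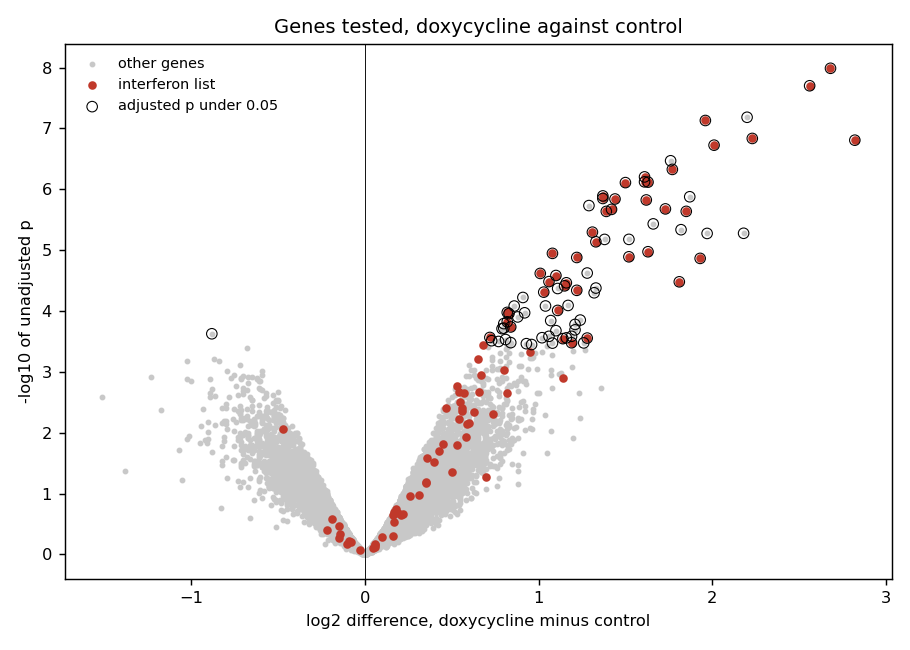
Log2 difference, doxycycline minus control (horizontal), against -log10 of the unadjusted p (vertical) for the 11817 genes, 1 point a gene, with called genes and members of the interferon list marked. Nearly all called genes lie on the right-hand side: 83 rose and 1, RPL7, fell.

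Antiviral effectors, the proteins that block viral replication directly, gave 33 of the 43 calls of the interferon list. Of 55 tested 33 rose and none fell, with a median difference of 1.08, or 1.09 without doxycycline replicate 2. RSAD2, which encodes the antiviral enzyme viperin, read 9.42, 10.17 and 9.72 on the doxycycline arrays and 6.84, 7.05 and 6.96 on the control arrays. OAS2, an oligoadenylate synthetase that is switched on by double-stranded RNA, read 10.24, 10.16 and 10.20 against 7.45, 7.41 and 7.71 in control cells. MX2, a dynamin-like GTPase that restricts viruses, read 8.16, 8.11 and 8.21 against 5.77, 5.63 and 5.41 in control cells. In all 3 genes the lowest doxycycline array stood more than 2 log2 units above the highest control array, and replicate 2 was the highest doxycycline array for RSAD2 only. The differences were 2.82 ± 0.19 for RSAD2 (7.04-fold, adjusted p = 0.000308), 2.68 ± 0.13 for OAS2 (6.39-fold, adjusted p = 0.000118) and 2.56 ± 0.14 for MX2 (5.89-fold, adjusted p = 0.000118). Without doxycycline replicate 2 they were 2.63 ± 0.13, 2.71 ± 0.13 and 2.60 ± 0.13.

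Further effectors rose together with them. OASL, an OAS-like protein without synthetase activity, read 9.86, 9.66 and 9.77 on the doxycycline arrays and 7.27, 7.65 and 7.67 on the control arrays. IFIT3, which binds other IFIT proteins at viral RNA, read 11.90, 11.55 and 11.84 against 9.70, 9.83 and 9.73 in control cells. GBP4, a guanylate-binding protein, read 9.44, 9.57 and 9.48 against 7.61, 7.51 and 7.47 in control cells. These 3 rises were 2.23 ± 0.15, 2.01 ± 0.14 and 1.96 ± 0.12. Their groups did not overlap, which was a condition for naming the largest rises and held upwards in 15.5% of all genes. BST2, or tetherin, which holds budding virions at the cell surface, rose by 1.85 ± 0.17, and the exonuclease ISG20 by 1.77 ± 0.14. The ubiquitin-like modifier ISG15 read 13.98, 13.63 and 13.79 against 12.72, 12.68 and 12.82 in control cells, a rise of 1.06 ± 0.14. UBA7, the enzyme that activates ISG15 for conjugation, rose by 1.63 ± 0.18, and HERC6, a ligase of the HERC family, by 1.63 ± 0.13. The rest of the 33 were OAS1, OAS3, MX1, IFIT1, IFIT2, IFITM1, IFI27, IFI35, IFI44L, SP110, ZC3HAV1, EPSTI1, LY6E, LGALS3BP, APOL6, SAMD9, SAMD9L, HELZ2, TRIM21, GBP1, GBP5 and DDX60, with rises of 0.82 to 1.93.

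**Figure D2:**
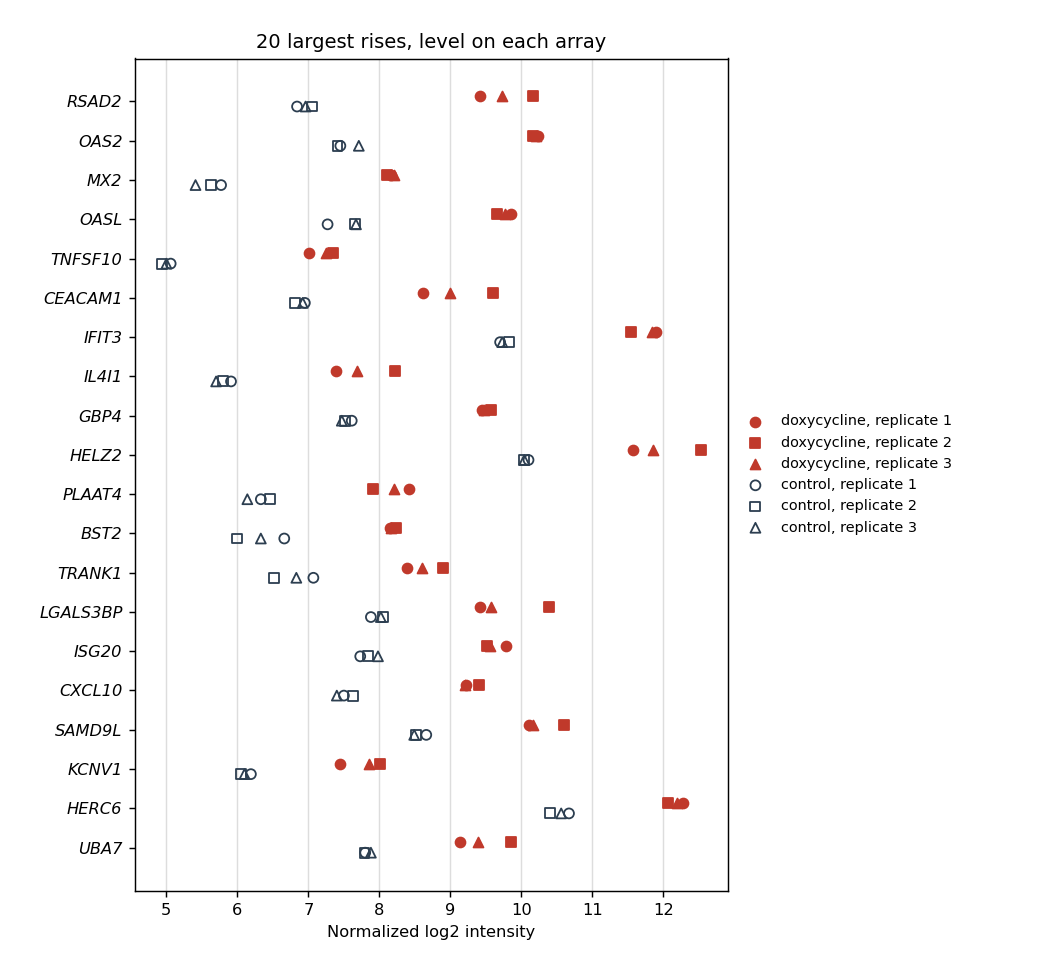
Normalised log2 signal on each array (horizontal) for the 20 genes with the largest rises, with the doxycycline arrays (filled) above the control arrays (open) in each gene. The genes run from RSAD2 with a difference of 2.82 downwards. That every doxycycline array lies above every control array was a condition for choosing them.

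Part of these genes lie side by side in the genome. Of the 84 called genes, 14 lie within 100 kb of another called gene, in 6 groups. On GRCh38.p14 these are GBP4 and GBP5 at chr1:89181144-89272860, IFIT2, IFIT3 and IFIT1 at chr10:89302046-89406487, and OAS1, OAS3 and OAS2 at chr12:112906962-113011723. The other groups are MX2 and MX1 at chr21:41362027-41459214, DDX60 and DDX60L at chr4:168216294-168480492, and SAMD9 and SAMD9L at chr7:93099518-93148385. OAS2 rose by 2.68 ± 0.13, OAS3 by 1.44 ± 0.13 and OAS1 by 1.52 ± 0.18. MX2 rose by 2.56 ± 0.14 and MX1 by 1.50 ± 0.12, with MX1 at 13.75, 13.89 and 13.83 on the doxycycline arrays and 12.42, 12.28 and 12.28 on the control arrays. Since 1 probe stood for each gene, such differences between genes also include differences between probes. Of 19 called genes with 2 or more usable probes, 18 had all probes of the same sign, and the exception was NAV2, a neuron navigator protein, at -0.18 and 0.77. The probes of OAS2 ranged from 0.98 to 2.68, those of OAS1 from 1.49 to 2.49, those of OAS3 from 0.83 to 1.44 and those of IFIT3 from 0.49 to 2.01. The probes of OAS1 and OAS2 thus overlapped in their differences, so no order of these genes can be read from them.

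The promoters of these genes were read for the core of the interferon-stimulated response element, written GAAANNGAAA on 1 strand and TTTCNNTTTC on the other. Promoter sequences came from RefSeq (GRCh38.p14) and span 250 bases before to 50 after a gene's start. RefSeq lists more than 1 start for some genes, and a match at any of them was counted. Of the 20 largest rises 14 had an entry, and 9 of these 14 (64.3%) held the motif. The following windows, with the motif in capitals and 10 bases on either side, are shown because they hold the motif in 8 of the genes with the largest rises.
RSAD2, chr2:6877622-6877651, plus strand: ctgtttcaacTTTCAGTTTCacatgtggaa
TNFSF10, chr3:172523598-172523627, minus strand: gaggagcttcTTTCAGTTTCcctcctttcc
CEACAM1, chr19:42528578-42528607, minus strand: agacagaaagGAAAGAGAAAgtaaggacaa
GBP4, chr1:89198927-89198956, minus strand: gtgcatgtccTTTCAATTTCggttctcaca
BST2, chr19:17405735-17405770, minus strand: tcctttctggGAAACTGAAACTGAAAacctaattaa
LGALS3BP, chr17:78979962-78979991, minus strand: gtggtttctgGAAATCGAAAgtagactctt
ISG20, chr15:88638937-88638966, plus strand: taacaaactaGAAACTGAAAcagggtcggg
CXCL10, chr4:76023699-76023728, minus strand: tcatgttttgGAAAGTGAAAcctaattcac
In BST2 overlapping copies run into each other, so the capitals cover 16 bases. The RSAD2 window lies at the second of 2 listed starts, and the promoter at the other, chr2:6865635-6865934, held no match. IFIT3 was the ninth gene with the motif, at both of its starts, whereas HELZ2, IL4I1, TRANK1, SAMD9L and HERC6 held no match to these letters in the window.

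Among all 83 genes that rose, 59 had a promoter entry and 32 of them (54.2%) held this motif. The share was 3.97% over the 9573 tested genes with an entry and 3.57% over all 35116 promoters. Among the genes that rose outside the interferon list it was 10 of 28 (35.7%). Of the genes that fell without doxycycline replicate 2, 6 had an entry and none held it, too few to set against 3.97%. The palindromic element TTCNNNGAA, known from genes induced by interferon gamma, was found in 23.7% of the genes that rose and in 8.62% of all tested genes. It was found in 1 of 14 of the largest rises and in 2 of 28 genes that rose outside the interferon list, 7.14% in both. These counts are too small to tell from the share of all tested genes. A κB-type element, GGGANNTTCC or GGAANNTCCC on the other strand, was found in 13.6% of the genes that rose and 2.13% of all tested genes, and in 14.3% of both smaller sets. Among the 113 genes with an entry that rose without doxycycline replicate 2, the shares of the 3 elements were 34.5%, 18.6% and 10.6% in the same order. The 2 elements with GAA ends can share bases, and a match to letters describes a sequence and does not show that a factor bound there.

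Upstream members of the pathway gave fewer calls than the effectors. Among 16 nucleic acid sensors and adaptors 4 rose and none fell, where 0.702% of all genes tested rose. RIGI, the sensor of short double-stranded RNA with a free triphosphate end, read 9.17, 9.43 and 9.14 on the doxycycline arrays and 7.50, 7.60 and 7.79 on the control arrays, a rise of 1.62 ± 0.14. IFIH1, the sensor of long double-stranded RNA, read 10.96, 11.02 and 11.04 against 9.57, 9.67 and 9.67 in control cells, a rise of 1.37 ± 0.12. DHX58, a related helicase that tunes both, rose by 1.61 ± 0.13 and TLR3 by 1.14 ± 0.20. For all 4 the groups did not overlap, as in 15.5% of all genes in this direction. IFI16, a sensor of DNA, read 12.42, 12.01 and 12.46 against 11.87, 11.50 and 11.62 in control cells. Its difference of 0.63 ± 0.17 missed the threshold on 6 arrays (adjusted p = 0.154) and passed it without doxycycline replicate 2, at 0.78 ± 0.13 (adjusted p = 0.0283).

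Receptors, transducers, regulators and the interferons themselves gave 1 call or none in each group, where 0.702% of all genes tested rose. With 9 genes or fewer tested in each group, no share can be read from these counts. IRF9, a DNA-binding subunit of the complex that acts below the interferon receptor, was the single gene that rose among 9 receptors and transducers. It read 12.23, 12.12 and 12.21 on the doxycycline arrays and 11.58, 11.41 and 11.40 on the control arrays (0.72 ± 0.12, adjusted p = 0.0445). USP18, a protease that removes ISG15 and blocks receptor signalling, was the single gene that rose among 7 negative regulators, at 1.19 ± 0.21 (adjusted p = 0.0485). It was lowest on replicate 2 among the doxycycline arrays, with 9.32, 8.76 and 9.46 against 8.21, 7.70 and 8.06 in control cells. None of 4 interferon regulatory factors passed the test, and their median difference was 0.12, or 0.17 without doxycycline replicate 2. Of 9 interferon genes with a probe 1 was tested, IFNE, at 5.39, 6.89 and 6.0 on the doxycycline arrays and 5.39, 5.42 and 5.37 on the control arrays (0.70 ± 0.32, adjusted p = 0.284). Its value on replicate 1 lay among those of the controls. IFI16 and IFNE, which passed no test on 6 arrays, were chosen after their values were seen.

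Of 6 genes listed with the interferon-induced PARP family, most of which encode ADP-ribosyltransferases, 4 rose. PARP12 read 9.94, 9.96 and 9.90 on the doxycycline arrays and 8.49, 8.42 and 8.71 on the control arrays, a rise of 1.39 ± 0.13. PARP9, PARP10 and ZNFX1, a helicase that senses viral RNA, rose by 1.01 ± 0.13, 1.03 ± 0.14 and 1.11 ± 0.17. The remaining members, PARP14 and DTX3L, the partner of PARP9, passed it only without doxycycline replicate 2. Over the whole interferon list 43 of 98 tested genes rose and none fell, the median difference was 0.69, or 0.74 without doxycycline replicate 2, and 88 of 98 differences were above 0, against 6014 of 11817 over all genes. The 3 doxycycline arrays gave the list nearly the same median, 0.75, 0.75 and 0.74 above the control mean. The number that rose was 27, 24 and 27 without control replicate 1, 2 or 3, and 58, 53 and 28 without doxycycline replicate 1, 2 or 3. In bulk RNA a stronger response per cell and a larger share of responding cells cannot be told apart.

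**Figure D3:**
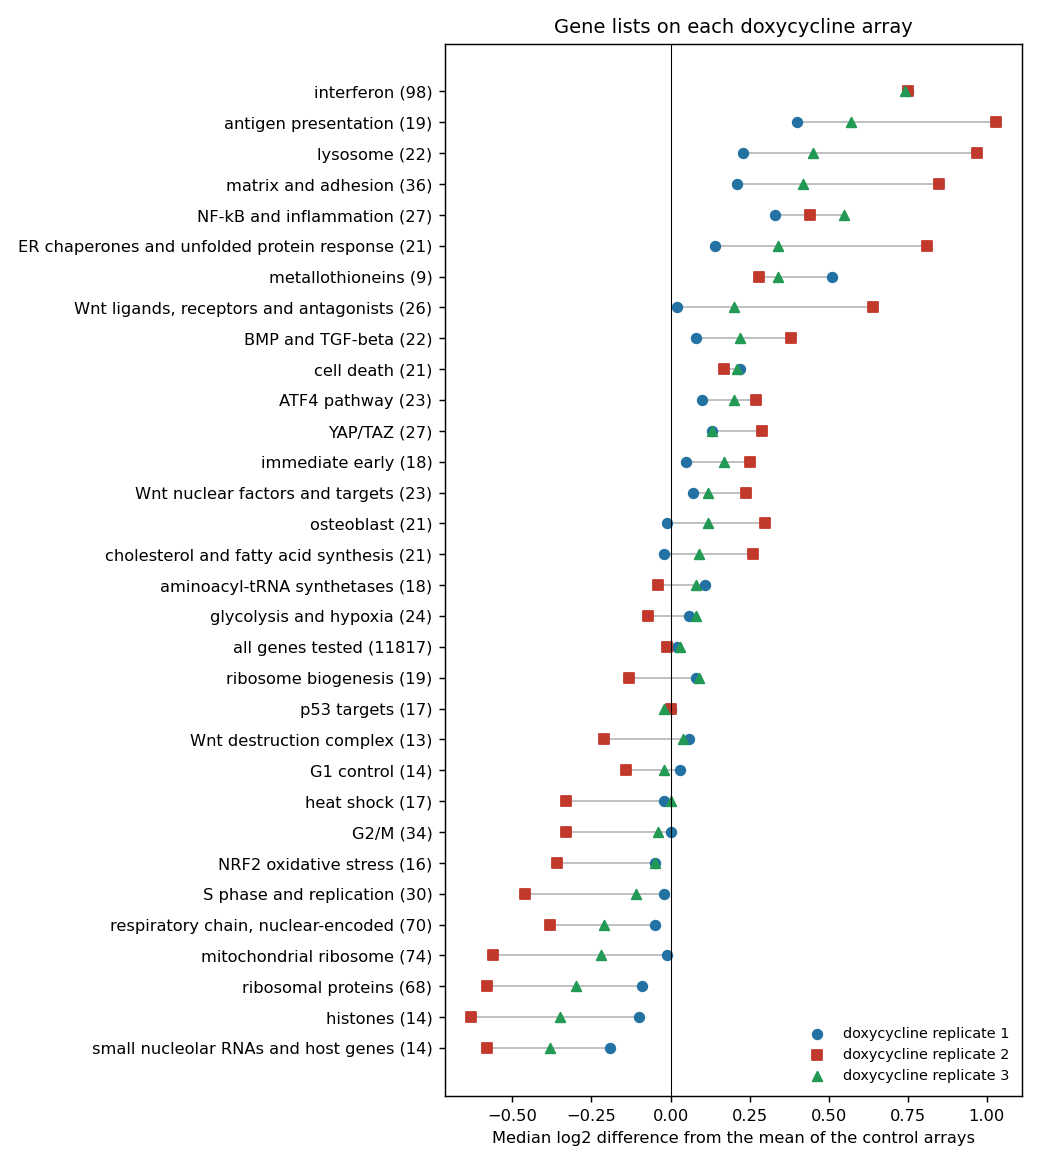
Median log2 difference from the control mean for each gene list on each doxycycline array. The interferon list lies at 0.74 to 0.75 on all 3 arrays, whereas lists such as the lysosome (0.23, 0.97 and 0.45) and the ribosomal proteins (-0.09, -0.58 and -0.30) are farthest from 0 on replicate 2 and nearest to it on replicate 1.

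Antigen presentation on MHC class I, which shows peptides from inside the cell to T cells, gave 3 rises among 19 genes tested. TAP1, a subunit of the peptide transporter, read 12.13, 12.96 and 12.45 on the doxycycline arrays and 11.40, 11.34 and 11.30 on the control arrays (1.16 ± 0.20, adjusted p = 0.0445). TAPBP, or tapasin, which holds the transporter at the class I molecule, rose by 1.10 ± 0.18, and the non-classical chain HLA-E by 1.04 ± 0.15. The 2 usable probes of TAPBP had differences of 0.3 and 1.1. In each of the 3 genes replicate 2 was the highest doxycycline array, yet replicates 1 and 3 also lay above all controls. All 19 differences were above 0, against 6014 of 11817 over all genes. Their median was 0.60, or 0.44 without doxycycline replicate 2. The array medians of this list were 0.40, 1.03 and 0.57 above the control mean.

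Among 27 genes of the NF-κB and inflammation list 4 rose and none fell. CXCL10, a chemokine that draws T cells, read 9.22, 9.40 and 9.20 on the doxycycline arrays and 7.50, 7.63 and 7.40 on the control arrays, a rise of 1.76 ± 0.13 (adjusted p = 0.000503). IL6, an inflammatory cytokine, read 10.89, 11.36 and 10.97 against 10.20, 9.64 and 9.68 in control cells, a rise of 1.24 ± 0.19 (adjusted p = 0.0287). The chemokine CCL5 rose by 0.80 ± 0.13 and IL15, a growth factor of natural killer cells, by 0.88 ± 0.14. CXCL11, which shares its receptor with CXCL10, had a difference of 1.08 ± 0.20 (adjusted p = 0.0614) and rose without doxycycline replicate 2, by 1.27 ± 0.17. None of the 13 subunits and feedback genes of NF-κB passed the test, and their median difference was 0.42, or 0.35 without doxycycline replicate 2.

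TNFSF10, which encodes the death ligand TRAIL, was detected in doxycycline-treated cells but not in control cells. It read 7.01, 7.34 and 7.25 on the doxycycline arrays, each of them detected, and 5.06, 4.94 and 5.0 on the control arrays, none of them detected. Because the controls give only a bound, its rise was at least 3.58-fold (adjusted p = 0.000219), measured against the lowest signal of detected probes on each array. It was the single gene that rose among 21 genes of cell death. PMAIP1, or NOXA, a BH3-only protein, read 11.31, 11.17 and 11.47 against 10.73, 10.44 and 10.60 in control cells. Its difference was 0.73 ± 0.14 (adjusted p = 0.0698), and it rose without doxycycline replicate 2, by 0.80 ± 0.13 (adjusted p = 0.0199).

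Genes of the Wnt pathway, to which APC belongs, gave 1 call. None of 13 tested genes of the destruction complex passed the test, with a median difference of -0.03, or 0.11 without doxycycline replicate 2. None of 26 ligands, receptors and antagonists did either. Their median was 0.29, or 0.14 without doxycycline replicate 2, and their array medians were 0.02, 0.64 and 0.20. CTNNB1, which encodes β-catenin, read 11.20, 10.76 and 11.11 on the doxycycline arrays and 11.28, 11.18 and 11.28 on the control arrays (-0.22 ± 0.15, adjusted p = 0.421). The 3 usable probes of CTNNB1 had differences from -0.32 to 0.38, so no direction can be read from them. Among 23 nuclear factors and targets CCND1, or cyclin D1, rose. It read 6.46, 6.44 and 6.42 on the doxycycline arrays and 5.09, 4.76 and 5.46 on the control arrays, where it was detected on 1 of 3, a difference of 1.33 ± 0.18 (adjusted p = 0.0112). The doxycycline values were almost identical while the control values were spread around the detection limit. CD44, an adhesion receptor for hyaluronan, read 12.01, 12.72 and 12.19 against 11.40, 11.31 and 11.30 in control cells. It missed the threshold on 6 arrays (0.97 ± 0.19, adjusted p = 0.066) and rose without doxycycline replicate 2, by 0.76 ± 0.11 (adjusted p = 0.0152). DKK1 and NOTUM, secreted inhibitors of Wnt signalling, had differences of -0.29 ± 0.15 and 0.58 ± 0.19 and passed neither test. DKK1 was named after its values were seen.

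Osteoblast and neighbouring signalling genes did not pass the test in any case. This held for 21 osteoblast genes (median 0.12), 22 genes of BMP and TGF-β signalling (median 0.26), 27 YAP and TAZ factors and targets (median 0.17) and 18 immediate early genes (median 0.17). Without doxycycline replicate 2 these medians were 0.05, 0.15, 0.12 and 0.11 in the same order. COL1A1, the main collagen chain of bone, read 13.48, 14.21 and 13.72 on the doxycycline arrays and 13.11, 13.23 and 13.28 on the control arrays. Its difference of 0.60 ± 0.19 had an adjusted p of 0.197, and replicate 2 was the highest. RUNX2, the master factor of osteoblasts, read 11.75, 11.89 and 11.81 against 11.39, 11.64 and 11.73 in control cells (0.23 ± 0.14, adjusted p = 0.38). Its 2 usable probes had differences of opposite sign, -0.31 and 0.23. NT5E, a surface enzyme that makes adenosine, was the single gene of these lists that rose without doxycycline replicate 2, by 0.81 ± 0.12 (adjusted p = 0.0126).

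Surface and matrix genes gave 2 calls of 36. CEACAM1, an adhesion molecule of the immunoglobulin family, read 8.62, 9.60 and 9.00 on the doxycycline arrays and 6.95, 6.81 and 6.92 on the control arrays. It rose by 2.18 ± 0.23 (4.55-fold, adjusted p = 0.00224), or by 1.93 ± 0.14 without doxycycline replicate 2, which was the highest array. MMP13, a collagenase, was detected on all 3 doxycycline arrays and on no control array, a rise of at least 1.6-fold (adjusted p = 0.0485). The list had a median difference of 0.44, or 0.30 without doxycycline replicate 2, and array medians of 0.21, 0.85 and 0.42. Without doxycycline replicate 2 it gave 6 calls, since PLAU, the urokinase protease, the integrin subunit ITGA2, NT5E and CD44 also rose. CD68, a lysosomal glycoprotein abundant in macrophages, was the single gene that rose among 22 lysosomal genes, by 0.92 ± 0.14 (adjusted p = 0.023). Its values were 10.17, 10.50 and 10.40 on the doxycycline arrays and 9.55, 9.35 and 9.40 on the control arrays. The lysosomal list had a median of 0.52, or 0.34 without doxycycline replicate 2. CD68 is also a haematopoietic marker. The summed signal of the 3 haematopoietic markers tested was 10.3 to 10.65 on the doxycycline arrays and 9.58 to 9.73 on the control arrays, while PTPRC, which marks all leukocytes, was not detected on 3 or more arrays. CD68 was the brightest of the 3, and CD14 and SPI1 had differences of 0.18 (adjusted p = 0.615) and 0.09 (adjusted p = 0.826).

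Of the 28 genes that rose and belong to no list, 4 were among the 20 largest rises. IL4I1, a secreted amino acid oxidase, read 7.39, 8.22 and 7.69 on the doxycycline arrays and 5.91, 5.80 and 5.70 on the control arrays, a rise of 1.97 ± 0.20. PLAAT4, a phospholipase also known as a retinoid-inducible tumour suppressor, read 8.41, 7.91 and 8.21 against 6.33, 6.46 and 6.14 in control cells, a rise of 1.87 ± 0.16. TRANK1 rose by 1.82 ± 0.19, and KCNV1, a silent potassium channel subunit, by 1.66 ± 0.17. All 4 were called in each of the 6 fits that left out 1 array. The following were picked after their values were seen. IL7R, the receptor chain for interleukin 7, read 11.43, 11.99 and 11.67 against 10.11, 10.17 and 10.25 in control cells, a rise of 1.52 ± 0.16. RASGRP3, an activator of Ras, read 7.44, 7.47 and 7.46 against 6.20, 6.18 and 6.13 in control cells, with the least spread of these genes and a rise of 1.29 ± 0.12. IL1R1, the interleukin 1 receptor, rose by 1.17 ± 0.17, FGF2, a growth factor for mesenchymal cells, by 0.81 ± 0.14, and SLC15A3, a lysosomal peptide transporter undetected in control cells, by at least 1.56-fold.

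Some genes near the detection limit differed in detection itself. Probes of 44 genes (0.372%) were detected on all 3 doxycycline arrays and on no control array, and those of 22 genes (0.186%) the other way round. Of the 44, TNFSF10, APOL1, CTSS, MMP13 and SLC15A3 rose, where 0.702% of all genes tested did. The 44 passed the detection filter only through their doxycycline arrays, so this count partly follows from how they were chosen. APOL1, a lipid-binding protein that kills trypanosomes, rose at least 1.74-fold, and CTSS, the protease cathepsin S, at least 1.69-fold. CFB, complement factor B, was at least 1.68-fold higher without passing the test (adjusted p = 0.115), and passed it without doxycycline replicate 2 (adjusted p = 0.0191). SMPDL3B, RHD and SERINC2, picked with CFB after their values were seen, likewise passed only without that array. None of the 22, which passed the filter only through their control arrays, passed the test on 6 arrays.

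RPL7, a protein of the large ribosomal subunit, was the single gene that fell on 6 arrays. It read 10.15, 9.84 and 10.28 on the doxycycline arrays and 10.90, 11.02 and 10.98 on the control arrays, a difference of -0.88 ± 0.15 (adjusted p = 0.0411). Replicate 2 was the lowest array, and the difference without it was -0.75 ± 0.11 (adjusted p = 0.0152). The call held in 2 of the 6 fits that left out 1 array. The 68 ribosomal protein genes tested had a median difference of -0.31, or -0.21 without doxycycline replicate 2, and RPL7 was the single call. Of their differences 58 were below 0, whereas 6014 of 11817 over all genes were above 0. Ribosomal protein genes have many near-identical pseudogenes, so their probes may not be specific. The array medians of this list were -0.09, -0.58 and -0.30, so that replicate 1 lay close to the controls.

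Nuclear genes for mitochondrial proteins also lay mostly below 0, without calls. The 74 mitochondrial ribosomal protein genes had a median difference of -0.26, with 1 above 0, and the 70 respiratory chain genes had -0.20, with 9 above 0. Over all genes 6014 of 11817 differences were above 0. The array medians were -0.01, -0.56 and -0.22 for the mitochondrial ribosome and -0.05, -0.38 and -0.21 for the respiratory chain. MRPL47, a protein of the large mitochondrial subunit, read 8.79, 8.43 and 8.86 on the doxycycline arrays and 9.32, 9.53 and 9.36 on the control arrays (-0.71 ± 0.15, adjusted p = 0.097). UQCRH, a subunit of complex III, had -0.72 ± 0.18 (adjusted p = 0.149). Without doxycycline replicate 2 the medians were -0.15 and -0.13. Genes encoded in mitochondrial DNA were not analysed here, since no probe carried 1 of their names alone.

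Proliferation and stress lists gave CCND1, 1 of 14 genes of G1 control, as their single call on 6 arrays. The median difference was -0.18 over 30 genes of S phase and replication, -0.12 over 34 mitotic genes and -0.38 over 14 histone genes. These medians were -0.06, 0 and -0.18 without doxycycline replicate 2. RRM2, a subunit of ribonucleotide reductase, read 9.86, 9.48 and 9.68 on the doxycycline arrays and 10.33, 10.11 and 10.16 on the control arrays (-0.52 ± 0.14, adjusted p = 0.16). No gene passed among 21 endoplasmic reticulum chaperones and sensors. All 21 differences were above 0 (median 0.44), against 6014 of 11817 over all genes. Their array medians were 0.14, 0.81 and 0.34, and the median without doxycycline replicate 2 was 0.24. Of 23 genes of the ATF4 pathway none passed on 6 arrays, and SLC7A5, a transporter of large neutral amino acids, rose without doxycycline replicate 2 by 0.80 ± 0.12 (adjusted p = 0.0184). The 16 NRF2 targets (median -0.14), 17 heat shock genes (median -0.12) and 9 metallothionein and zinc genes (median 0.35) gave no call on 6 arrays. Without doxycycline replicate 2 their medians were -0.03, -0.03 and 0.49, and SLC30A1, a zinc exporter, rose by 0.58 ± 0.11 (adjusted p = 0.0416).

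Without doxycycline replicate 2, 160 genes passed (1.35%), with 148 higher (1.25%) and 12 lower (0.102%) in doxycycline-treated cells. All 84 genes called on 6 arrays were among them, in the same direction. The remaining 76 comprised 65 that rose and 11 that fell, and 10 of the 65 were interferon response genes. These 10 were PARP14, DTX3L, UBE2L6, SP100, HERC5, PLSCR1, IFI16, IFITM2, IFITM3 and IFIT5. Outside the lists the complement proteases C1S and C1R, picked after their values were seen, rose by 0.88 ± 0.16 and 0.79 ± 0.14. C1S read 7.55, 8.50 and 7.88 on the doxycycline arrays and 6.91, 7.02 and 6.59 on the control arrays, so the array left out was the highest. Of the 160 genes, 58 had a difference of at least 1 log2 unit in either direction, against 65 of 84 on 6 arrays. Leaving out the array thus gave more calls but fewer large differences among them.

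**Figure D4:**
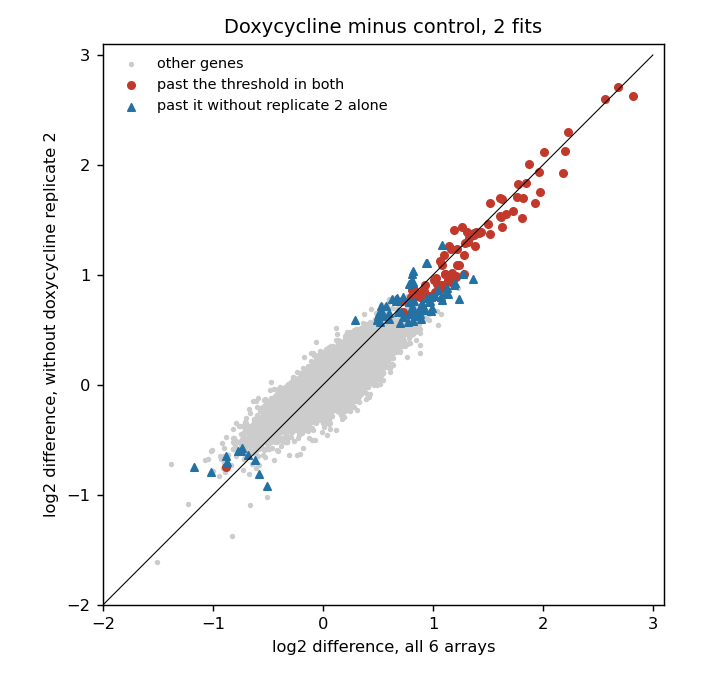
Log2 difference, doxycycline minus control, for the 11817 genes without doxycycline replicate 2 (vertical) against all 6 arrays (horizontal), 1 point a gene, with genes called in both fits and those called without that array alone marked, and a line of equal values. All 84 genes called on 6 arrays keep their direction, and the 76 further genes comprise 65 above and 11 below 0.

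Of the 12 falls without doxycycline replicate 2, 3 were of the ribosomal protein list. RPL7, RPL23 and RPL36A encode proteins of the large subunit and had differences of -0.75, -0.60 and -0.57. BZW1, a regulator of translation start, read 7.74, 6.94 and 7.51 on the doxycycline arrays and 8.47, 8.38 and 8.38 on the control arrays. It had -1.02 ± 0.20 on 6 arrays (adjusted p = 0.0704) and fell without replicate 2, at -0.79 ± 0.12 (adjusted p = 0.0152). H4C5, a histone H4 gene, read 5.98, 5.77 and 5.85 against 6.58, 6.56 and 6.50 in control cells and missed the threshold narrowly on 6 arrays (-0.68 ± 0.12, adjusted p = 0.0523). SNORD14D, a small nucleolar RNA, and ANGPTL4, a secreted inhibitor of lipoprotein lipase, behaved differently. SNORD14D read 6.09, 7.43 and 6.35 on the doxycycline arrays and 7.32, 7.09 and 7.0 on the control arrays, so that its fall of -0.92 ± 0.14 rests on leaving out the array above the controls. ANGPTL4 read 10.11, 10.87 and 10.27 against 10.78, 11.05 and 11.15 in control cells, with -0.81 ± 0.14 without replicate 2 and -0.58 ± 0.21 on 6 arrays. The 3 usable probes of ANGPTL4 had differences from -0.58 to -0.07 on 6 arrays. The others were LIN7C, a polarity scaffold, BCYRN1, CHAC2 and the pseudogenes RPL21P28 and RPL23AP87.

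**Figure D5:**
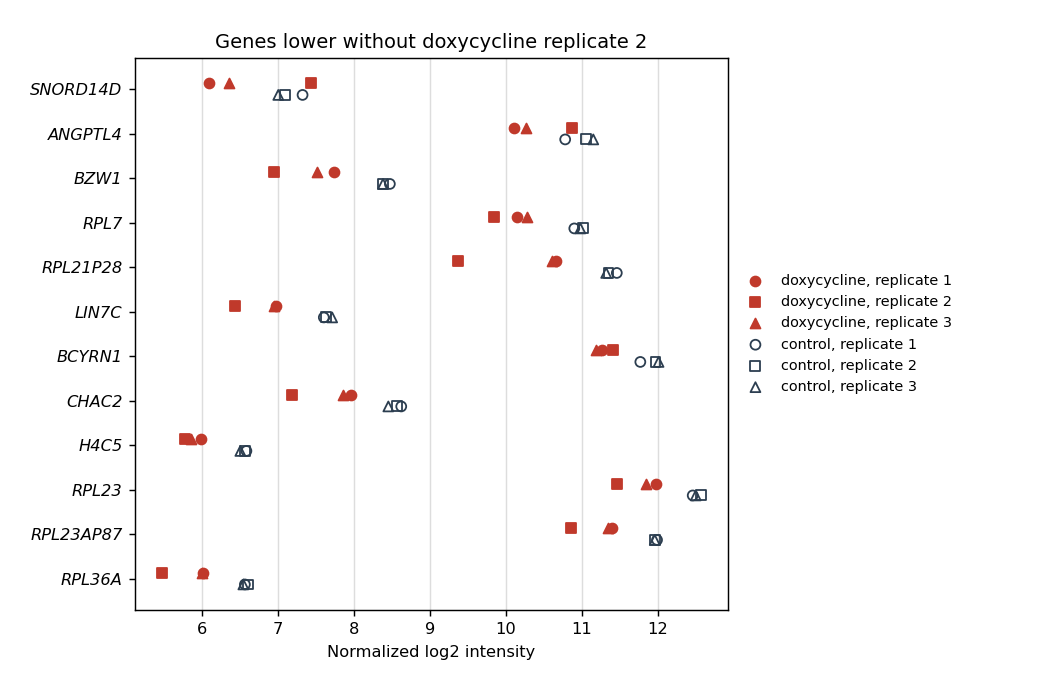
Normalised log2 signal (horizontal) on each array for the 12 genes that fell without doxycycline replicate 2, with the doxycycline arrays (filled) above the control arrays (open) in each gene. In RPL7 and BZW1 replicate 2 is the lowest doxycycline array, whereas in SNORD14D it lies above the controls.

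The cells grown on without doxycycline share the control arrays with this comparison, so their values are only set beside it. In a fit of all 9 arrays RSAD2 differed from the controls by 2.79 under doxycycline and by 5.92 after withdrawal, and CCND1 by 1.32 and 3.54.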

How the data were processed

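RNA was hybridised to 1-colour Illumina bead arrays labelled with Cy3. The deposited table gives, per the file headers, each probe's mean bead intensity and detection p-value, not normalised. The authors' deposited processed values of the same arrays served as an alternative. Background was corrected on detection p (normexp, offset 16), and log2 values were quantile-normalised over the 6 arrays. Of 47322 probes 30112 carried 1 gene symbol. The brightest usable probe stood for a gene. Differences were tested with limma (lmFit and eBayes, version 3.58.1, R 4.3.3) with Benjamini-Hochberg adjustment at 0.05, after checks on simulated data. Tables and figures used Python 3.11.15 with pandas 2.3.3 and numpy 2.4.6. The number of arrays, 3 per group, limits the precision.

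Groups came from the titles and treatment labels. The members, gene lists, motifs and tests were chosen with earlier results of these data known, and lists received no test of their own. Named were APC, the 20 largest rises and up to 10 falls among called genes, the falls with the smallest p up to 10, up to 10 falls called without doxycycline replicate 2, list members called or up to 4 with the smallest p, and the 8 highest and 8 lowest genes on doxycycline replicate 2. The largest rises and falls among called genes were also required to show no overlap between the arrays of the groups. A probe undetected on every array of a group gave a bound. Alternatives changed the offset, background, normalisation, detection filter, probe choice, prior, array weights and arrays. Versions of the authors' software were not given in the sources used here.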

Additional observations from a re-analysis of the deposited data

Results flagged for a closer look

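Probes that carry no single gene name were left out of the gene comparison, and 1 of them rose. Of 5169 such probes detected on 3 or more arrays, the probe ILMN_3259146 read 7.77, 7.65 and 8.03 on the doxycycline arrays and 5.83, 5.72 and 5.92 on the control arrays. The groups did not overlap, and the difference was 2 ± 0.17 on the log2 scale (adjusted p = 0.00177 over these probes in limma). It was also the single such probe to pass without doxycycline replicate 2. At an unadjusted p under 0.05 there were 814 such probes on 6 arrays and 646 without doxycycline replicate 2. The transcript that this probe measures is not identified here.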

How the results depend on the processing

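None of the 60 named genes called on 6 arrays changed sign under the alternatives run. The 84 calls on 6 arrays (83 higher, 1 lower) became 280 with median scaling (229 higher, 51 lower), 256 with all 9 arrays in the fit (210 higher, 46 lower) and 5580 with array weights, whose estimation did not converge. Leaving out 1 array gave 34 to 1157 calls. The other settings gave 59 to 92. The 160 calls without doxycycline replicate 2 became 343 with an offset of 50, 92 with no detection filter, 243 with detection p under 0.01, 449 with a trended robust prior and 248 with all 9 arrays, and 58 differed by at least 1 log2 unit. The cause of these changes was not tested. The interferon list gave 37 to 57 rises and no fall under all settings that kept the 6 arrays, other than array weights with 81 and 3. The median of all genes stayed within 0 to 0.04 on 6 arrays and 0.01 to 0.05 without doxycycline replicate 2.

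Of the 60 named genes called on 6 arrays, 25, 29 and 25 were lost without control replicate 1, 2 or 3 and 25 without doxycycline replicate 3, none without doxycycline replicate 1 or 2, 14 with no detection filter and 8 with the authors' processed values. APC ranged from 0.01 to 0.35 and never passed. Replicate numbers are shared between the groups, and the deviations of same-numbered arrays correlated at -0.11, -0.03 and -0.03. With 3 arrays per group such values cannot decide whether same-numbered arrays were handled together. The main test used no pairing. With the replicate block 69 genes were called, all higher, 63 of them among the 84. With 3 arrays per group, and signals near background for genes such as APC and CCND1, small differences could not be resolved.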

Other observations

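Doxycycline replicate 2 differed by at least 0.5 log2 units from the mean of the other arrays of its group in 3218 genes (27.23%). The same count was 2109 for doxycycline replicate 1 and 352 for replicate 3, against 302 to 364 for the control arrays. The genes farthest above the others on replicate 2 included CCDC149, a coiled-coil protein, at 6.88, 8.82 and 7.23 on the 3 doxycycline arrays, AMT, an enzyme of glycine cleavage, at 6.19, 7.83 and 6.21, and TPM2, a tropomyosin, at 7.47, 9.14 and 7.66. The farthest below was RNU4-1, a spliceosomal small nuclear RNA, at 7.72, 5.15 and 6.54. None of the 16 genes farthest above or below passed the test on 6 arrays. They were chosen for their spread among the doxycycline arrays, which by itself makes that test hard to pass.

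Lists moved to different degrees with this array. Lysosomal genes lay 0.97 above the control mean on replicate 2, 0.23 on replicate 1 and 0.45 on replicate 3, and class I chains 1.32, 0.46 and 0.88. Antiviral effectors lay 0.95, 1.09 and 1.11 above it in the same order. These are descriptions of single arrays, and the part of RNA quality or culture state in them was not tested.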
